A study of Homo sapiens with 18 samples.

Results

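The genes described here are 45 genes of ribosome biogenesis: nucleolar, RNA polymerase I and ribosome assembly genes, together with MYC. They were listed by name, by a rule that uses no measured value, with earlier results of these data known. All 45 were found among the 60709 genes with counts, and all 45 passed the filter on low counts that 15189 genes passed. By role they are MYC, 3 box C/D snoRNP proteins, 5 box H/ACA snoRNP proteins and their chaperone, 4 abundant nucleolar proteins, 5 genes of the RNA polymerase I machinery, 12 small subunit assembly factors and 15 large subunit assembly factors.

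RNA was sequenced from MDA-MB-231, an established human triple-negative breast cancer cell line, in 6 groups of 3 samples. Cells labelled sh-LUC carried a hairpin against luciferase, a control that targets no human gene, and their genotype is labelled WT. Cells labelled sh-IGFBP6 carried a hairpin against IGFBP6, which encodes a secreted binding protein for insulin-like growth factor 2. For 24 h each line received 1 of 3 treatments. The vehicle was 0.5% ethanol plus 0.5% DMSO. DHA (docosahexaenoic acid), a long omega-3 fatty acid, was given at 200 µM with 0.5% DMSO. Erastin, which blocks the cystine transporter and can trigger ferroptotic cell death, was given at 2.5 µM with 0.5% ethanol. The ethanol percent of the DHA wells and the DMSO percent of the erastin wells are not given. Cells had been plated at 800000 per well 24 h earlier. The labels do not say whether a hairpin line is 1 clone, or whether samples in 1 group were grown as separate cultures. If they were not, the spread that the p-values rest on may be only technical.

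Ribosomes are assembled in the nucleolus. RNA polymerase I copies the ribosomal DNA into a long precursor, guide RNA particles (snoRNPs) modify and help to cut it, and assembly factors fold the pieces into a small and a large subunit that are exported to the cytoplasm. MYC is a transcription factor known for binding the promoters of many of these genes and for raising ribosome output in growing and cancerous cells. Its binding partner is MAX, and the complex recognises the E-box, CACGTG.

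Library totals ran from 2708143 to 7977429 counts, apart from erastin replicate 3 of sh-IGFBP6. That library held 609936 counts, of which 54.4% fell on the mitochondrial ribosomal RNA genes, against 0.0349% to 0.504% in the other 17 libraries. Only 1936 of its counts fell on the 45 genes. The counts and named erastin values of sh-IGFBP6 are given with and without it, except under alternative methods or scaling. Totals also differed between groups, from 2708143 to 4043424 in sh-LUC vehicle and from 7281095 to 7977429 in sh-LUC erastin. The part of depth in the results was not tested. IGFBP6 stood at 12.3 to 20.9 CPM in the 9 sh-LUC libraries and at 0.420 to 3.81 CPM in the 9 sh-IGFBP6 libraries (CPM, read counts scaled to a common library size, with TMM factors). Of the MDA-MB-231 markers, VIM, CD44, EGFR, MSN, AXL and KRT18 were at 177 CPM or more in every library, while ESR1 and PGR did not pass 3.003 CPM. ERBB2 and GATA3, the other 2 genes of the list with ESR1 and PGR, were at 66.3 to 106 CPM and at 2.26 to 13.1 CPM. In bulk RNA, fewer cells of a type and less RNA per cell cannot be told apart.

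Promoter windows of RefSeq (GRCh38.p14, 250 bases before to 50 bases after a start) were matched by symbol for 37 of the 45 genes, in 46 windows. Those of BOP1, DDX18, MYC, NOLC1, NOP58, RRP12, RRS1 and TCOF1 were not matched. The E-box CACGTG, which reads the same on both strands, was present in 17 of the 46 windows (37.0%), against 7.26% of 35116 windows of all genes and 9.06% of 14946 windows of tested protein-coding genes. 9 of these sites follow, with the E-box in capitals. The first 5 belong to genes that erastin raised in sh-LUC, and the last 4 to genes that it did not, so that the same letters can be seen in both.
DDX21, + strand, chr10:68956604-68956633, exon and 5′ UTR: ggccgggtgtccCACGTGgtccccggcgac
WDR43, + strand, chr2:28894658-28894687, exon and 5′ UTR: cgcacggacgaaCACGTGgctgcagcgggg
PNO1, + strand, chr2:68157885-68157914, exon and 5′ UTR: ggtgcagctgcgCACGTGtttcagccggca
UTP4, + strand, chr16:69132621-69132650, exon, 5′ UTR and coding start: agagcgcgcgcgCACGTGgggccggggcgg
UTP20, + strand, chr12:101280025-101280104, upstream of the gene: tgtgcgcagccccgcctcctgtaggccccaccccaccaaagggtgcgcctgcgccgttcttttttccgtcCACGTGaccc
FBL, - strand, chr19:39846356-39846385, exon and 5′ UTR: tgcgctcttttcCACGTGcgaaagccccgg
NOP10, - strand, chr15:34343130-34343159, exon and 5′ UTR: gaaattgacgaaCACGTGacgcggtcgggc
GAR1, + strand, chr4:109815781-109815810, exon and 5′ UTR: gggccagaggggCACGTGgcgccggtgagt
LYAR, - strand, chr4:4290068-4290097, exon and 5′ UTR: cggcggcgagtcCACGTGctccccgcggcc

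These annotations are from GENCODE release 29 on GRCh38. A match to the letters describes the window and is not evidence of a bound site. Under erastin in sh-LUC the median log2 fold change was 0.53 in the 17 genes with the E-box, 12 of them called higher, and 0.49 in the 20 genes without it, 17 of them called higher. Between the untreated lines (sh-IGFBP6 vehicle against sh-LUC vehicle) the medians were 0.79 with the E-box and 0.84 without it. These medians are descriptions and were not tested against each other. TGATGNAA, searched on both strands, was in 0 of the 46 windows, against 3.62% of all windows and 2.09% of windows of tested protein-coding genes.

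With vehicle alone, nearly the whole set stood at a higher level, relative to library size, in the cells with the IGFBP6 hairpin than in the sh-LUC cells. In vehicle, 42 of the 45 genes were called higher in sh-IGFBP6 by edgeR (quasi-likelihood fit, Benjamini-Hochberg adjusted p below 0.05), against 32.5% of all tested genes. 1 was called lower, against 32.1% of all tested genes. The median log2 fold change of the 45 was 0.86, and that of all tested genes was 0.01. 33 were at least 1.5-fold higher, against 21.4% of tested genes. MYC itself was the gene called lower, NOP56 and PPAN were not called, and the remaining genes rose. The summed level of the 45 genes was 3632 to 3651 CPM in the 3 sh-LUC vehicle libraries and 6892 to 7181 CPM in the 3 sh-IGFBP6 vehicle libraries, which did not overlap. NCL and NPM1 together made up 24.0% to 25.8% of the sum in the sh-LUC vehicle libraries. Other cell-type markers moved with the line: the 7 fibroblast and endothelial markers summed to 37.3 to 43.1 CPM in sh-LUC vehicle and to 2.22 to 3.47 CPM in sh-IGFBP6 vehicle. PDGFRB reached 37.9 CPM, while CDH5 stayed at 0.193 CPM or less and DCN at 0.240 CPM or less in every library. The 5 leukocyte markers summed to 4.21 to 4.95 and to 0.771 to 2.11 CPM. Their part in the result was not tested.

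**Figure D1:**
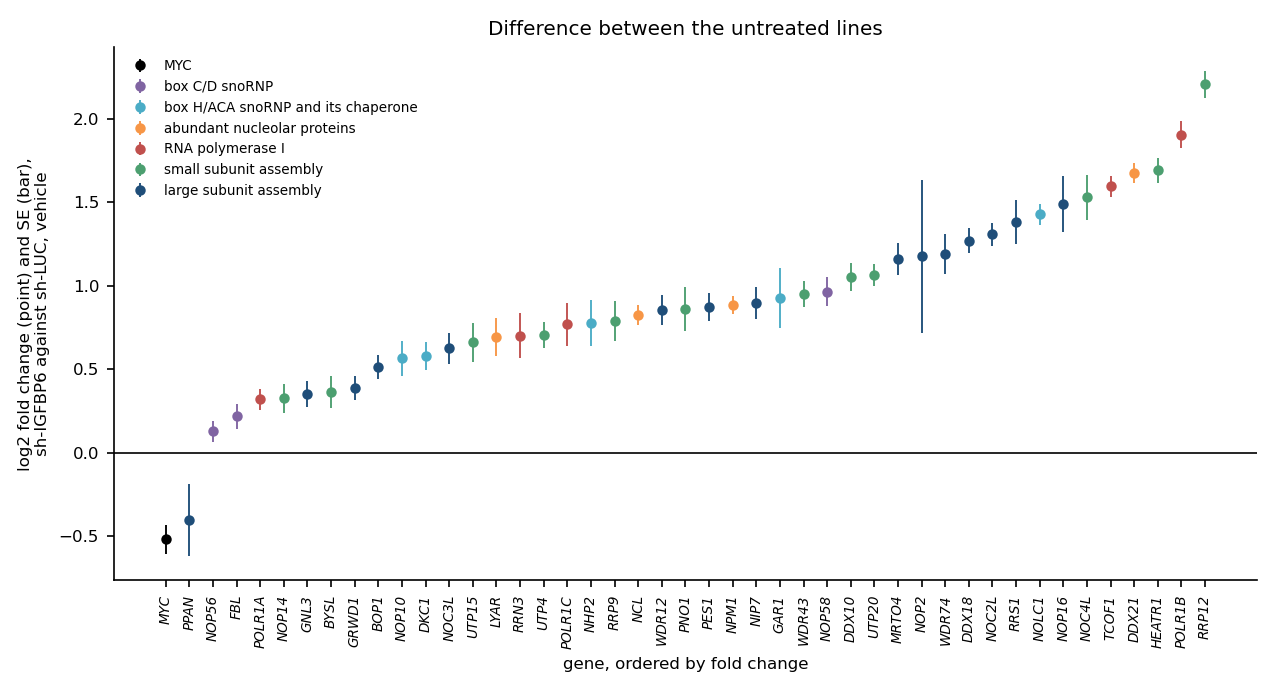
Log2 fold change of each of the 45 genes in vehicle, sh-IGFBP6 against sh-LUC, ordered by size, with points coloured by role and bars of 1 standard error. MYC and PPAN lie below 0 and the other genes above, from NOP56 at 0.13 to RRP12 at 2.20.

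Erastin raised most of the set in sh-LUC. Against sh-LUC vehicle, 37 of the 45 genes were called higher, against 21.4% of all tested genes, and 0 were called lower, against 24.4% (edgeR's quasi-likelihood test). At an unadjusted p below 0.05 it was also 0 lower, and DESeq2 called 34 higher and 0 lower. Over all 15189 tested genes DESeq2 called 5545, of which 2553 were higher. The median log2 fold change was 0.51, beside -0.02 over all tested genes, and 18 genes rose by at least 1.5-fold, against 9.99% of tested genes. The 8 that were not called were FBL, NHP2, NOP10, GAR1, LYAR, NOP2, NOC2L and GRWD1. The 12 small subunit assembly factors and the 5 RNA polymerase I genes were all called higher, as were 12 of 15 large subunit factors, 3 of 4 abundant nucleolar proteins, 2 of 3 box C/D proteins and 2 of 5 box H/ACA genes. The summed level was 5324 to 5391 CPM with erastin, above every sh-LUC vehicle library and below every sh-IGFBP6 vehicle library. Markers of other cell types moved in the same comparison. The 7 fibroblast and endothelial markers summed to 37.3 to 43.1 CPM in vehicle and to 14.9 to 16.7 CPM with erastin, with PDGFRB and PECAM1 called lower, and the 5 leukocyte markers to 4.21 to 4.95 and to 1.599 to 3.48 CPM. Their part in the result was not tested. Calls of POLR1C, RRS1, NOC4L, WDR12 and PPAN were lost when 1 library was left out: POLR1C without vehicle replicate 1 or 2 or erastin replicate 1 (adjusted p up to 0.178), RRS1 without vehicle replicate 2 or 3 or erastin replicate 3 (up to 0.109), NOC4L without vehicle replicate 2 (0.113), WDR12 without vehicle replicate 3 or erastin replicate 2 (up to 0.0553), and PPAN without vehicle replicate 3 or erastin replicate 1 (up to 0.0961). Without erastin replicate 3 of sh-IGFBP6, 39 were called higher.

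In sh-IGFBP6 fewer of the genes were called with erastin. Against their own vehicle, 12 of 45 genes (26.7%) were called higher, against 14.7% of all tested genes, and 8 (17.8%) were called lower, against 14.3%, which is near the share of all tested genes. Without erastin replicate 3 the counts were 11 and 7, and DESeq2 called 8 higher and 5 lower. DESeq2 called 3086 of all 15189 tested genes, 1466 of them higher. The median log2 fold change of the 45 was 0.03 with erastin replicate 3 and 0.02 without it. Only 3 genes were at least 1.5-fold higher, MYC, RRN3 and PPAN, against 5.99% of tested genes, and 0 were at least 1.5-fold lower, against 4.01%. The genes called lower were NOP56, DKC1, TCOF1, NOC4L, NOC2L, BOP1, RRS1 and MRTO4. The call of RRS1 was lost without erastin replicate 3 (adjusted p = 0.0676), and also without erastin replicate 2, vehicle replicate 2 or 3, or sh-LUC erastin replicate 2 (adjusted p up to 0.18). Of the 8, 7 had been called higher by erastin in sh-LUC, and NOC2L had not been called there. Those 7 are 18.9% of the 37 called higher in sh-LUC and 87.5% of the 8. Over all tested genes the shares were 6.48% and 9.69%. Among all 45 genes 17.8% were called lower in sh-IGFBP6 and 82.2% higher in sh-LUC, near the shares of the 7. 10 genes were called higher by erastin in both lines, which is 10 of the 37 called higher in sh-LUC and 10 of the 12 called higher in sh-IGFBP6 (27.0% and 83.3%). Over all tested genes 1132 were called higher in both lines, 34.8% of those called higher in sh-LUC and 50.9% of those called higher in sh-IGFBP6. The 45 as a whole had 26.7% called higher in sh-IGFBP6 and 82.2% in sh-LUC, near the 27.0% and 83.3%. The 10 were MYC, DDX21, RRN3, WDR43, DDX10, RRP12, BYSL, PNO1, WDR74 and PPAN. The 20 genes called higher only in sh-LUC and not called in sh-IGFBP6 included NOP58, NOLC1, NCL and NPM1. The count of rises depended on erastin replicate 1: without it 6 were called higher and 5 lower, and the calls of MRTO4, WDR43, DDX21, RRP12, GAR1, LYAR, NOC2L, WDR74 and DKC1 were lost. Without erastin replicate 2, 4 were called lower. The call of LYAR was lost in 12 of the 18 fits that left out 1 library (adjusted p up to 0.455), with 0.0795 without erastin replicate 3.

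The difference between the responses was tested as the erastin change in sh-IGFBP6 minus the erastin change in sh-LUC. It was called negative for 32 of 45 genes, against 12% of all tested genes, and positive for 0, against 14.1%. At an unadjusted p below 0.05 it was 34 negative and 0 positive, and DESeq2 called 30 and 0. Among all 15189 tested genes DESeq2 called 2667, of which 1386 were positive. The median difference was -0.56 on the log2 scale, beside 0.02 over all tested genes, and 20 genes passed 1.5-fold, against 6.52% of tested genes. Without erastin replicate 3 of sh-IGFBP6, 32 were called and the median was -0.57. Leaving out other single libraries, the call of HEATR1 was lost in 6 fits (edgeR, adjusted p up to 0.127). That of NOP16 was lost in 2 (up to 0.0739), and those of DDX18, MYC and NCL in 1 each (0.0924, 0.05 and 0.123). The largest differences were those of RRP12 (-1.06 ± 0.11), NOP56 (-1.03 ± 0.09) and MRTO4 (-0.97 ± 0.13), given as log2 differences with SE, and -1.08, -1.04 and -0.9957 without that library. GAR1, LYAR and NOP10 had differences of 0.03, 0.05 and 0.03 (-0.0005, 0.0024 and 0.02 without it), with adjusted p of 0.964, 0.861 and 0.913 in edgeR's quasi-likelihood test, and PPAN was the 1 gene above 0.1 (0.39 ± 0.26, adjusted p = 0.293, and 0.33 without it). In vehicle 42 of the 45, all but MYC, NOP56 and PPAN, had been called higher in sh-IGFBP6, and 35 of 45 had their lowest mean level in sh-LUC vehicle. With erastin in both lines, 10 of the 45 had the higher mean in sh-LUC: MYC, NOP56, NOP58, POLR1A, NOP14, UTP4, BYSL, NOC3L, BOP1 and GNL3. Shares of all tested genes for the counts of 35 and 10 were not computed.

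**Figure D2:**
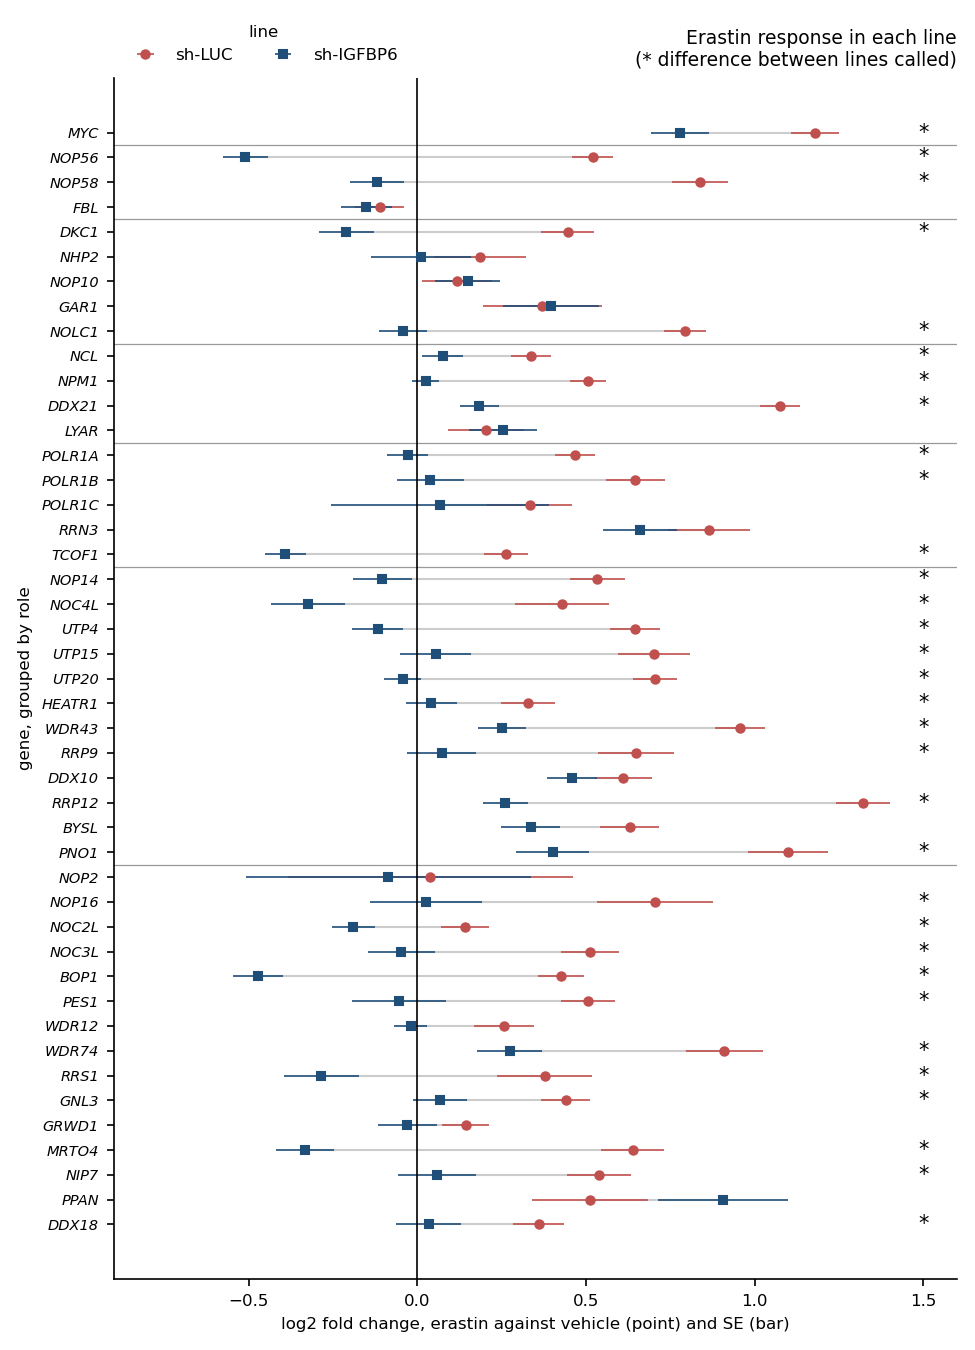
Log2 fold change of each gene, erastin against vehicle, in sh-LUC (circles) and sh-IGFBP6 (squares) with bars of 1 standard error, and asterisks at the 32 genes whose difference between lines was called. The sh-LUC points lie right of 0 for most genes while the sh-IGFBP6 points lie around 0, with MYC, RRN3 and PPAN furthest right.

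Scaling matters to these counts. When libraries were scaled by their totals alone, without TMM, the median of all genes moved to -0.12 for erastin in sh-LUC and to -0.19 for erastin in sh-IGFBP6. The share of all calls that were higher moved from 46.7% to 31.9% in sh-LUC and from 50.5% to 23.1% in sh-IGFBP6. On that scale 21 of the 45 genes were called higher with erastin in sh-LUC, against 9.59% of all tested genes, and 3 in sh-IGFBP6, against 4.15%, where the median of the 45 was -0.23 and WDR43 (-0.066), DDX21 and RRP12 changed sign. This scaling kept erastin replicate 3 of sh-IGFBP6, whose TMM factor of 0.4315 was the lowest of the 18 libraries. The highest factor was 1.12. Values on that scale without this library were not computed.

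With DHA fewer of the genes were called than with erastin in sh-LUC, and 13 against 12 were called higher in sh-IGFBP6. In sh-LUC 9 of 45 were called higher, against 7.14% of all tested genes, and 0 lower, against 9.63%, with a median log2 fold change of 0.13 and 0 genes at 1.5-fold higher, against 1.94%, or lower, against 3.04%. At an unadjusted p below 0.05, 15 genes were higher and 0 lower, and DESeq2 called 6 higher and 0 lower. DESeq2 called 1555 of all 15189 tested genes, 575 of them higher. When scaled by library size alone, 0 were called higher in sh-LUC, against 2.19% of all tested genes, and 3 in sh-IGFBP6, against 5.66%, and the share of all calls that were higher in sh-IGFBP6 moved from 50.8% to 33.3%. In sh-IGFBP6 13 were called higher, against 17.4%, and 1 lower, against 16.8%, with a median of 0.09. PPAN and RRN3 were the 2 genes at least 1.5-fold higher, against 5.9% of tested genes, and 0 were at least 1.5-fold lower, against 7.34%. In sh-LUC the summed level was 3983, 3646 and 4252 CPM in DHA replicates 1, 2 and 3, which overlapped the vehicle range of 3632 to 3651 CPM. The sh-LUC count fell to 4 without DHA replicate 3, the replicate with the highest sum. The calls of NOP56 and UTP20 were among those lost there (adjusted p = 0.0626 and 0.0558). PNO1, NOC4L, PES1 and NOC2L each lost the call without any of 2 or more single libraries, with adjusted p of up to 0.193, 0.261, 0.0991 and 0.0645. DHA at 200 µM and erastin at 2.5 µM were set directly against each other within each line. In sh-LUC 35 genes were lower with DHA than with erastin, against 24.2% of all tested genes, and only FBL was higher, against 26%. In sh-IGFBP6 MYC was lower, against 12.8%, and 9 were higher (8 without erastin replicate 3), against 13.1%: NOP56, TCOF1, NOP14, RRP12, NOC2L, BOP1, PES1, GRWD1 and MRTO4. Of these 9, RRP12 lost the call without DHA replicate 1 or 3 or erastin replicate 2 or 3 (edgeR, adjusted p up to 0.214). PES1 lost it without DHA replicate 3 or erastin replicate 2 (up to 0.259), and NOP14 without erastin replicate 2 (0.126). The DHA response of sh-IGFBP6 minus that of sh-LUC was called positive for 4 genes, against 10.4%, and negative for 6, against 10.2%. The 4 were RRN3, DDX10, BYSL and PPAN, and the 6 were NOP56, TCOF1, NOC4L, UTP4, UTP20 and BOP1. These counts became 8 and 3 without sh-LUC DHA replicate 3, and 2 were positive without sh-LUC vehicle replicate 1 or 2 or sh-LUC DHA replicate 2. The call of PPAN was lost in 9 of the 18 fits that left out 1 library (edgeR, adjusted p up to 0.141). That of NOC4L was lost in 8 (up to 0.2), and those of RRN3 and BYSL in 2 each (up to 0.0686 and 0.0529). The comparisons of DHA and of erastin with vehicle share the vehicle libraries of their line.

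**Figure D3:**
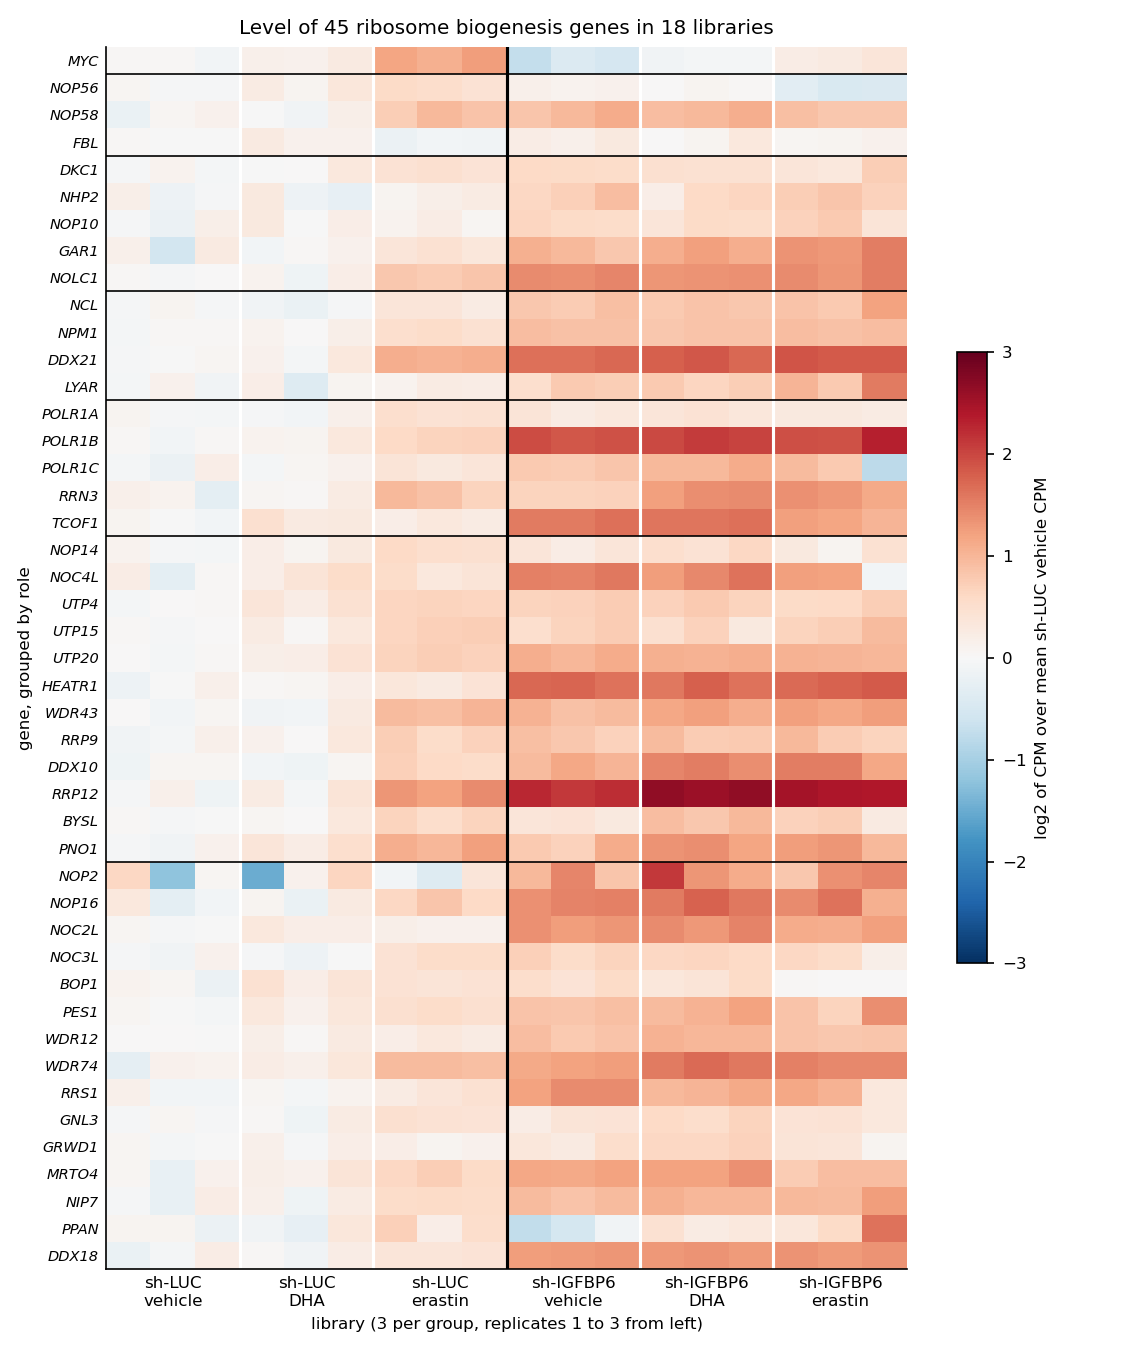
Heat map of the 45 genes (rows, grouped by role) in the 18 libraries (columns, 3 per group), coloured by the log2 ratio of CPM to the gene's mean in sh-LUC vehicle. The 9 sh-IGFBP6 columns are redder than the sh-LUC columns for most rows, and the sh-LUC erastin columns lie between. The last column, the library of 609936 counts, departs from its group in several genes, among them POLR1C and NOC4L (lower) and PPAN (higher).

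MYC was lower in sh-IGFBP6 vehicle than in sh-LUC vehicle, where most of the set was higher, and it rose with erastin in both lines. It was at 78.9, 79.1 and 72.8 CPM in the 3 sh-LUC vehicle libraries and at 46.97, 57.8 and 53.9 CPM in the 3 sh-IGFBP6 vehicle libraries. The groups did not overlap, and MYC was 1.43-fold lower in sh-IGFBP6 (log2 fold change -0.52 ± 0.09 (SE), adjusted p = 8.6e-08, edgeR with Benjamini-Hochberg adjustment). With erastin it was at 176, 161 and 184 CPM in sh-LUC and at 90.3, 92.8 and 99.04 CPM in sh-IGFBP6. Both sets of libraries lay above their own vehicle, by 2.27-fold in sh-LUC (adjusted p = 7.2e-31) and 1.72-fold in sh-IGFBP6 (adjusted p = 1.1e-13, log2 0.78, and 0.78 without erastin replicate 3). The rise was smaller in sh-IGFBP6, by a log2 difference of -0.40 ± 0.11 (SE, adjusted p = 0.00384, and -0.43 without erastin replicate 3), and that call was lost without sh-IGFBP6 vehicle replicate 2 (adjusted p = 0.05). With DHA MYC was at 84.8, 83.8 and 92.3 CPM in sh-LUC and at 71.8, 73.9 and 73.5 CPM in sh-IGFBP6. DHA raised it in sh-IGFBP6 (log2 fold change 0.45 ± 0.08 (SE), adjusted p = 3.7e-06), and in sh-LUC the log2 fold change of 0.18 was not called (adjusted p = 0.0881).

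**Figure D4:**
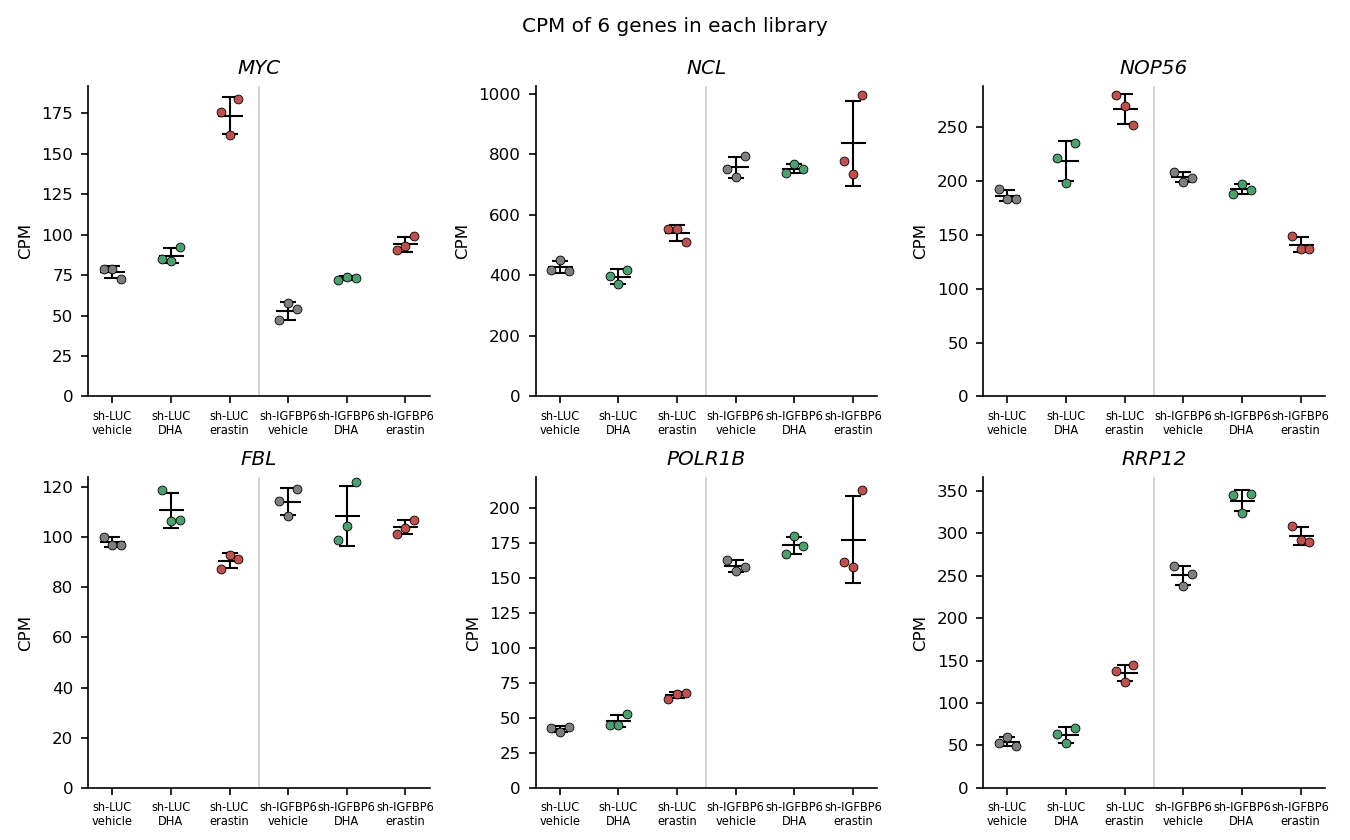
CPM of MYC, NCL, NOP56, FBL, POLR1B and RRP12 in each of the 18 libraries, with points for libraries and bars for the mean and 1 SD of 3. MYC is the lowest in sh-IGFBP6 vehicle and highest in sh-LUC erastin, NOP56 is lowest in sh-IGFBP6 erastin, and FBL stays between 87.2 and 122 CPM.

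The box C/D particles carry guide RNAs for ribose methylation of ribosomal RNA. NOP56 and NOP58 are their paired scaffold proteins and FBL (fibrillarin) is the methyltransferase. NOP56 (chr20:2652145-2658393) was at 193, 183 and 184 CPM in sh-LUC vehicle, 222, 199 and 236 CPM with DHA and 279.6, 269.7 and 252 CPM with erastin. In sh-IGFBP6 it was at 209, 199 and 203 CPM in vehicle, 188, 197 and 192 CPM with DHA and 149, 137 and 137 CPM with erastin. All 3 erastin libraries of sh-LUC stood above, and all 3 of sh-IGFBP6 below, every vehicle library of their line. The log2 fold changes were 0.52 ± 0.06 (SE, adjusted p = 4.2e-13) and -0.51 ± 0.07 (adjusted p = 3.4e-10, -0.50 without erastin replicate 3), and their difference was -1.03 (adjusted p = 2.3e-18, and -1.04 without it). NOP58 rose by 1.79-fold with erastin in sh-LUC, and its log2 fold change in sh-IGFBP6 was -0.12 (adjusted p = 0.278, and -0.11 without it). FBL was at 100.1, 96.8 and 96.8 CPM in sh-LUC vehicle, 87.2, 93.00 and 91.2 CPM with erastin and 119, 106 and 107 CPM with DHA. In sh-IGFBP6 it was at 114, 109 and 119 CPM in vehicle, 101, 104 and 107 CPM with erastin and 98.8, 104 and 122 CPM with DHA. Neither agent moved it past the test against vehicle in either line. FBL was called higher in sh-IGFBP6 vehicle than in sh-LUC vehicle (0.22 ± 0.07, adjusted p = 0.00772) and higher with DHA than with erastin in sh-LUC (0.29 ± 0.06, adjusted p = 8.6e-05).

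The box H/ACA particles guide pseudouridylation. DKC1 is their pseudouridine synthase, NHP2, NOP10 and GAR1 are its partner proteins, and NOLC1 (Nopp140) is a chaperone of snoRNPs. All 5 were higher in sh-IGFBP6 vehicle than in sh-LUC vehicle. NOLC1 was at 146, 137 and 142 CPM in sh-LUC vehicle and 247, 239 and 250.1 CPM with erastin, a rise of 1.73-fold (adjusted p = 1.7e-22). In sh-IGFBP6 it was at 378, 370.3 and 393 CPM in vehicle and 377, 352 and 408 CPM with erastin, which overlapped. GAR1 was called higher with erastin in sh-IGFBP6 (log2 fold change 0.40 ± 0.14 (SE), adjusted p = 0.0251, lost with an adjusted p of up to 0.168 without sh-IGFBP6 vehicle replicate 2 or 3 or erastin replicate 1 or 2) and not in sh-LUC (0.37 ± 0.18, adjusted p = 0.0752), and the difference between the lines was 0.03 (adjusted p = 0.964). Without erastin replicate 3 of sh-IGFBP6 these GAR1 values were 0.39 in sh-IGFBP6 and -0.0005 for the difference. DKC1 rose by 0.45 on the log2 scale in sh-LUC and fell by 0.21 on that scale in sh-IGFBP6 (adjusted p = 0.039, lost without any 1 of sh-IGFBP6 vehicle replicates 1 to 3 or erastin replicates 1 or 2, and -0.22 without erastin replicate 3).

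NCL (nucleolin), NPM1 (nucleophosmin), DDX21 (an RNA helicase that works on ribosomal RNA and at RNA polymerase I genes) and LYAR are abundant nucleolar proteins. NPM1 was the most abundant of the 45 per exon length, with a mean of 125 CPM per kb in sh-LUC vehicle and 230.2 CPM per kb in sh-IGFBP6 vehicle. It was at 456, 487 and 488 CPM in sh-LUC vehicle, 679, 695 and 659 CPM with erastin, 899, 874 and 870.1 CPM in sh-IGFBP6 vehicle and 907, 882 and 903 CPM with erastin there. NCL was at 417, 451 and 415 CPM in sh-LUC vehicle, 554, 554 and 511 CPM with erastin, 751, 726 and 795 CPM in sh-IGFBP6 vehicle and 779, 734 and 994 CPM with erastin there. For both genes every sh-LUC erastin library stood above every sh-LUC vehicle library, while in sh-IGFBP6 the groups overlapped. The erastin log2 fold changes in sh-LUC were 0.51 for NPM1 (adjusted p = 1.2e-14) and 0.34 for NCL (adjusted p = 6.8e-07), and in sh-IGFBP6 0.03 and 0.08, not called (0.03 and 0.0017 without erastin replicate 3). The difference between the lines was called for both, at -0.48 and -0.26 (-0.50 and -0.36 without it), and that of NCL was lost without sh-IGFBP6 erastin replicate 2 (adjusted p = 0.123). NPM1 has many processed pseudogenes, so its counts are uncertain where reads could be shared. DDX21 (chr10:68956128-68985073) changed most: 214, 218 and 229 CPM in sh-LUC vehicle, 466, 458 and 472 CPM with erastin and 695, 698 and 722 CPM in sh-IGFBP6 vehicle, a rise of 2.11-fold with erastin and a difference of 3.20-fold between the untreated lines. In sh-IGFBP6 the erastin log2 fold change was 0.18 ± 0.06 (adjusted p = 0.00928), a call lost without erastin replicate 1, with a value of 0.19 without erastin replicate 3 and of -0.20 when libraries were scaled by size alone.

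POLR1A and POLR1B are the catalytic subunits of RNA polymerase I, POLR1C is a subunit shared with RNA polymerase III, RRN3 is the initiation factor that brings the polymerase to the ribosomal DNA, and TCOF1 (treacle) is a nucleolar scaffold protein. All 5 rose with erastin in sh-LUC, POLR1C with an adjusted p of 0.0243 that rose to as much as 0.178 when sh-LUC vehicle replicate 1 or 2 or erastin replicate 1 was left out. POLR1B (chr2:112541915-112577150) was at 43.2, 39.98 and 43.6 CPM in sh-LUC vehicle, 63.7, 66.9 and 67.9 CPM with erastin and 45.3, 44.9 and 52.96 CPM with DHA, and 163, 155 and 158 CPM in sh-IGFBP6 vehicle. With erastin it was at 162, 158 and 213 CPM and with DHA at 168, 179.8 and 173 CPM in sh-IGFBP6. The 2 lines did not overlap in any condition, and POLR1B was 3.74-fold higher in sh-IGFBP6 vehicle (adjusted p = 6.3e-44). TCOF1 was at 126, 118 and 111 CPM in sh-LUC vehicle and at 351, 350.0 and 370.4 CPM in sh-IGFBP6 vehicle. With erastin it was at 137, 149 and 140.4 CPM in sh-LUC and at 278, 272 and 240.0 CPM in sh-IGFBP6, up 1.20-fold in sh-LUC and down 1.31-fold in sh-IGFBP6 (log2 -0.39 ± 0.06, adjusted p = 6.5e-08, and -0.37 without erastin replicate 3). RRN3 rose in sh-IGFBP6 with both agents, from 30.4, 30.3 and 30.8 CPM in vehicle to 49.4, 47.04 and 41.9 CPM with erastin and 45.05, 49.9 and 51.2 CPM with DHA, and no treated library overlapped the vehicle libraries. Its log2 fold changes were 0.66 ± 0.11 with erastin (0.67 without erastin replicate 3) and 0.69 ± 0.10 with DHA. RRN3 has near-identical pseudogene copies, so its counts are uncertain. POLR1C in erastin replicate 3 of sh-IGFBP6 was at 11.4 CPM, below the 19.1, 17.4 and 22.8 CPM of sh-LUC vehicle.

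The small subunit assembly factors act in the processome that cuts and folds the 18S precursor: UTP4, UTP15, HEATR1 and WDR43 belong to the UTP-A complex that links it to ribosomal DNA transcription, RRP9 is a U3 snoRNP protein, NOP14 and NOC4L act together, DDX10 is an RNA helicase, and BYSL, PNO1 and RRP12 act in the late pre-40S particle. RRP12 (chr10:97356358-97426076) had the largest fitted change of the 45 between the untreated lines and with erastin in sh-LUC. It was at 53.1, 60.4 and 49.8 CPM in sh-LUC vehicle and 261, 238 and 252 CPM in sh-IGFBP6 vehicle, 4.61-fold higher (log2 fold change 2.20 ± 0.08 (SE), adjusted p = 3.3e-48). With erastin it was at 137, 125 and 144 CPM in sh-LUC and 309, 292 and 289.5 CPM in sh-IGFBP6, and with DHA at 64.1, 52.7 and 71.1 CPM in sh-LUC and at 345, 324 and 346 CPM in sh-IGFBP6. Every sh-LUC erastin library stood above its vehicle by 2.50-fold on the fit (adjusted p = 6.7e-29), while in sh-IGFBP6 the fold was 1.20 (adjusted p = 0.00107, lost without erastin replicate 1, log2 0.26 with and 0.27 without erastin replicate 3, and log2 -0.094 when scaled by library size alone). HEATR1 was at 55.9, 61.02 and 68.04 CPM in sh-LUC vehicle and at 205, 207 and 190.3 CPM in sh-IGFBP6 vehicle, a 3.23-fold difference, and 23.2% of its exon bases overlap LGALS8 on the other strand. PNO1 rose by 2.14-fold with erastin in sh-LUC, from 18.8, 18.04 and 21.1 to 41.2, 38.6 and 45.1 CPM, and by 1.32-fold in sh-IGFBP6 (log2 0.40, and 0.41 without erastin replicate 3). BYSL rose in sh-IGFBP6 with DHA by 1.45-fold (adjusted p = 2.5e-08), with 60.8, 62.6 and 57.8 CPM in vehicle and 89.2, 83.1 and 93.1 CPM with DHA, which did not overlap. UTP4 and UTP20 rose with DHA in sh-LUC, by 0.34 and 0.27 on the log2 scale, and not in sh-IGFBP6 (0.01 and -0.00). The difference of those responses was -0.33 ± 0.10 for UTP4 (adjusted p = 0.0119, lost without sh-LUC DHA replicate 3) and -0.28 ± 0.09 for UTP20 (adjusted p = 0.0178, lost without sh-LUC DHA replicate 3 or vehicle replicate 2).

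The large subunit assembly factors make the 60S precursor: PES1, BOP1 and WDR12 form the PeBoW complex, NOC2L and NOC3L bind together, MRTO4 holds the place of a stalk protein, GNL3 is nucleostemin and DDX18 is an RNA helicase. In sh-LUC erastin moved BOP1, PES1 and WDR12 by 0.43, 0.51 and 0.26 on the log2 scale, all called. In sh-IGFBP6 the values were -0.47, -0.05 and -0.02, and only BOP1 was called, as lower (adjusted p = 5.4e-08). They were -0.47, -0.09 and -0.02 without erastin replicate 3. BOP1 was at 179, 166 and 184 CPM in sh-IGFBP6 vehicle and 128, 126 and 126 CPM with erastin, which did not overlap. MRTO4 was at 39.6, 32.5 and 41.7 CPM in sh-LUC vehicle and 58.02, 63.4 and 56.5 CPM with erastin, and in sh-IGFBP6 at 84.6, 83.5 and 87.4 CPM in vehicle and 63.9, 71.8 and 72.4 CPM with erastin, rising 1.56-fold in the 1 line and falling 1.26-fold in the other (log2 -0.33, and -0.33 without erastin replicate 3). RRS1 was the 1 gene of the 45 that fell with DHA in sh-IGFBP6 (log2 fold change -0.32 ± 0.11 (SE), adjusted p = 0.0125, lost without vehicle replicate 2 or DHA replicate 2). PPAN was at 6.62, 7.71 and 10.3 CPM in sh-IGFBP6 vehicle, 13.9, 16.6 and 34.3 CPM with erastin and 15.3, 13.1 and 13.8 CPM with DHA, and rose by 1.87-fold and 1.67-fold. Its erastin log2 fold change was 0.91 with erastin replicate 3 and 0.86 without it. PPAN and NOP2 share 56.0% and 54.4% of their exon bases with readthrough genes listed at 0, and NOP2 was at 0.498 to 6.01 CPM in the 18 libraries, so their counts are uncertain.

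Other genes of the same pathway were counted in 6 further lists, of 138 genes, 136 of them tested. In sh-LUC erastin raised 77 (56.6%, against 21.4% of all tested genes) and lowered 9 (6.62%, against 24.4%), with a median log2 fold change of 0.28. In vehicle 100 were higher in sh-IGFBP6 (73.5%, against 32.5%) and 12 lower (8.82%, against 32.1%), with a median of 0.67. In sh-IGFBP6 erastin raised 23 (16.9%, against 14.7%) and lowered 31 (22.8%, against 14.3%), with a median of -0.00158. Without erastin replicate 3 these counts were 23 and 27, with a median of 0.0071. DHA there raised 43 (31.6%, against 17.4%) and lowered 11 (8.09%, against 16.8%). The difference between the lines under erastin was called for 61 of 136 (44.9%, against 12%), all lower in sh-IGFBP6, and for 62 without erastin replicate 3. In sh-LUC erastin, 34 of 46 other large subunit factors were higher (73.9%) and 1 lower, and 25 of 38 other small subunit processome genes were higher (65.8%) and 1 lower. Of 16 other RNA polymerase I genes, 5 were higher (31.2%) and 3 lower (18.8%), and of 10 snoRNP assembly factors, 3 were higher and 2 lower, nearer to the shares of all tested genes. UBTF, the upstream binding factor that activates ribosomal DNA, was among those that fell, with log2 fold changes of -0.64 ± 0.07 in sh-LUC and -0.40 ± 0.07 in sh-IGFBP6 (-0.40 without erastin replicate 3). NOL6, a processome component, rose by 1.72-fold in sh-LUC, RSL24D1, a pre-60S factor, by 2.33-fold, and EBNA1BP2 was 4.33-fold higher in sh-IGFBP6 vehicle.

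Of 16 listed partners and antagonists of MYC, 13 were tested. Erastin raised 6 (46.2%, against 21.4% of all tested genes) and lowered 4 (30.8%, against 24.4%) in sh-LUC. In sh-IGFBP6 it raised 7 (53.8%, against 14.7%) and lowered 1 (7.69%, against 14.3%), and these counts were also 7 and 1 without erastin replicate 3. MXD1, a MAX partner that competes with MYC, rose by 6.24-fold with erastin in sh-LUC (log2 fold change 2.64 ± 0.10 (SE), adjusted p = 1.2e-48) and by 2.65-fold in sh-IGFBP6 (2.63-fold without erastin replicate 3), and MXD3, of the same family, fell by 1.56 on the log2 scale in sh-LUC. MAX was 1.80-fold higher and MXD4 2.67-fold lower in sh-IGFBP6 vehicle. Of 20 genes bound by MYC outside the nucleolus, 9 were called higher (45%) and 3 lower (15%) with erastin in sh-LUC, and 2 higher and 10 lower in sh-IGFBP6, counts that were also 2 and 10 without erastin replicate 3. All tested genes had the shares given for the MYC partners. ODC1, ornithine decarboxylase, rose by 3.57-fold with erastin in sh-LUC and was 16.5-fold higher in sh-IGFBP6 vehicle. CAD, which starts pyrimidine synthesis, fell 1.65-fold with erastin in sh-IGFBP6, and 1.62-fold without erastin replicate 3.

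**Figure D5:**
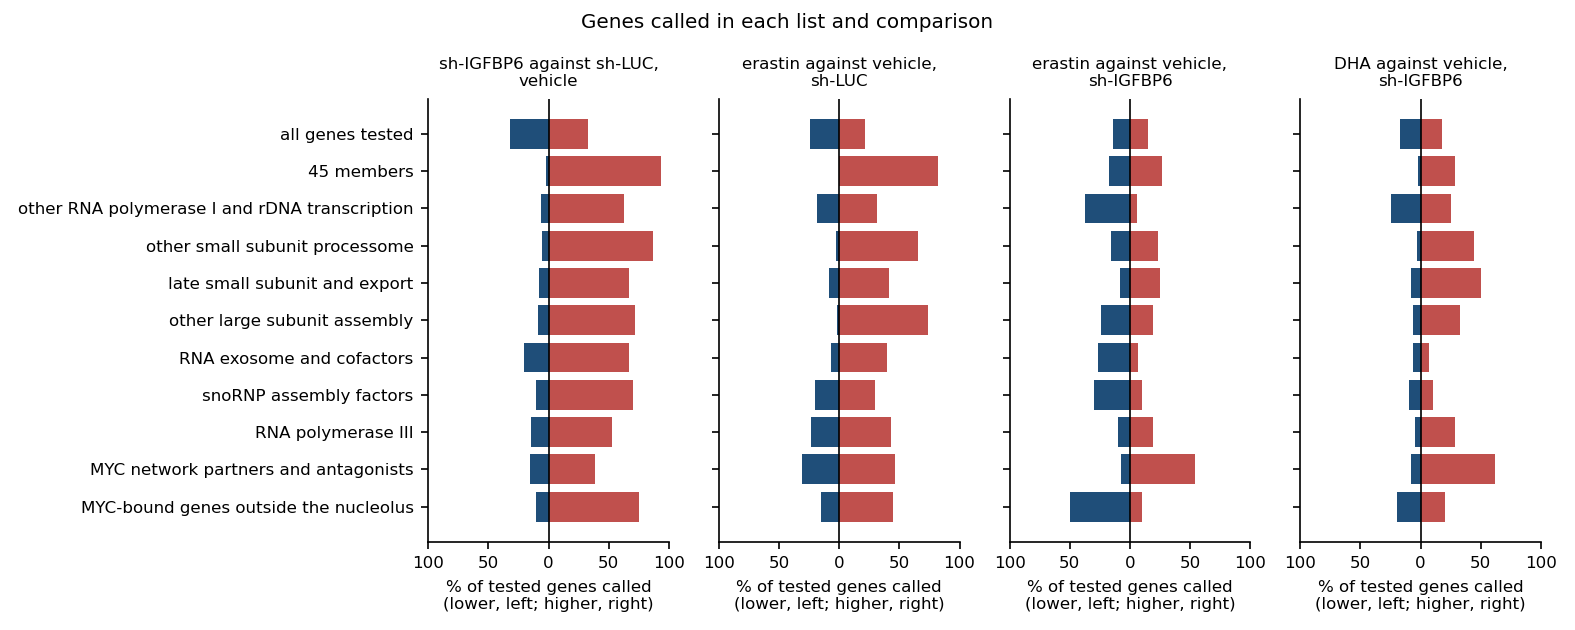
Percent of tested genes called higher (red, right) and lower (blue, left) in 4 comparisons, for all tested genes, the 45 genes and 9 further lists. The 45 genes reach 93.3% higher between the untreated lines and 82.2% higher with erastin in sh-LUC, and the bars for all tested genes are 32.5% and 21.4%.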

How the data were processed

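RNA of 18 samples, 3 in each of 6 groups, was depleted of ribosomal RNA and sequenced. The deposited values are raw read counts per gene. Per the submitters' processing notes, the authors used cutadapt 4.4, STAR 2.7.7a, featureCounts and GRCh38. For the featureCounts version, the annotation release and the strand setting, each is not given in the sources used. 1 gene with missing counts and 2 lines without a gene were left out. The 2 lines held at most 0.01082% of a library. The 45 genes and the 9 further lists were chosen with earlier results of these data known.

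Counts were filtered with filterByExpr (minimum count 10, minimum total 15), scaled by TMM and fitted over all 6 groups with edgeR 4.0.16 (quasi-likelihood, R 4.3.3), with Benjamini-Hochberg adjustment over 15189 genes and a threshold of 0.05. The common dispersion was 0.003951, with 12 residual degrees of freedom. The procedure was tested on simulated data. Standard errors are the absolute log2 fold change divided by the square root of F, or come from the pooled spread where F was below 1. DESeq2 1.42.0 was an alternative. Any of the 45 genes could be named. Values per sample are given for MYC, NCL, NOP56, FBL, NPM1 and POLR1B and for genes with the largest changes of a comparison. Genes of other lists were named by smallest p, up to 2 per list and comparison.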

Additional observations from a re-analysis of the deposited data

Results flagged for a closer look

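The response to the same agent differed between the 2 lines, by the interaction term of edgeR's quasi-likelihood fit, for 32 of the 45 genes with erastin and 10 with DHA. With erastin all 32 were negative, against 12% of all tested genes, and 0 positive, against 14.1%. With DHA 4 were positive, against 10.4%, and 6 negative, against 10.2%, which is near the share of all tested genes. Values are the log2 response of sh-IGFBP6 minus that of sh-LUC. For erastin the second value leaves out erastin replicate 3 of sh-IGFBP6, and all 32 were also called without it. Over the 18 fits that left out 1 library, the erastin call of HEATR1 was lost in 6 and that of NOP16 in 2. Those of DDX18, MYC and NCL were lost in 1 each. With erastin, MYC and the snoRNP, abundant nucleolar and RNA polymerase I genes were MYC (-0.40 and -0.43), NOP56 (-1.03 and -1.04), NOP58 (-0.96 and -0.98), DKC1 (-0.66 and -0.69), NOLC1 (-0.84 and -0.87), NCL (-0.26 and -0.36), NPM1 (-0.48 and -0.50), DDX21 (-0.89 and -0.91), POLR1A (-0.50 and -0.51), POLR1B (-0.61 and -0.65) and TCOF1 (-0.65 and -0.66). The small subunit assembly genes were NOP14 (-0.64 and -0.67), NOC4L (-0.75 and -0.75), UTP4 (-0.76 and -0.79), UTP15 (-0.65 and -0.67), UTP20 (-0.75 and -0.77), HEATR1 (-0.29 and -0.31), WDR43 (-0.70 and -0.73), RRP9 (-0.57 and -0.59), RRP12 (-1.06 and -1.08) and PNO1 (-0.70 and -0.71). The large subunit assembly genes were NOP16 (-0.68 and -0.69), NOC2L (-0.33 and -0.36), NOC3L (-0.56 and -0.57), BOP1 (-0.90 and -0.92), PES1 (-0.56 and -0.62), WDR74 (-0.64 and -0.65), RRS1 (-0.66 and -0.66), GNL3 (-0.37 and -0.39), MRTO4 (-0.97 and -0.9957), NIP7 (-0.48 and -0.51) and DDX18 (-0.33 and -0.35).

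With DHA the differences were NOP56 (-0.31), RRN3 (0.55), TCOF1 (-0.33), NOC4L (-0.47), UTP4 (-0.33), UTP20 (-0.28), DDX10 (0.47), BYSL (0.40), BOP1 (-0.43) and PPAN (0.71). The calls of PPAN and NOC4L were lost in 9 and 8 of the 18 fits that left out 1 library. Those of RRN3, BYSL and UTP20 were lost in 2 each, and that of UTP4 in 1. When libraries were scaled by size alone, 19 of the 45 genes had a called erastin difference and 0 a called DHA difference. Over all 15189 tested genes 1327 erastin differences were then called, 588 of them positive, and 1041 DHA differences, 276 of them positive.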

How the results depend on the processing

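The 9 comparisons were recomputed with DESeq2, with its size factors in edgeR, with scaling by library size alone, without the filter on low counts, with only the groups compared, with a replicate block and without each library in turn. Scaling by library size alone changed most: 21 genes were higher with erastin and 0 with DHA in sh-LUC, and 3 with erastin and 3 with DHA in sh-IGFBP6. It gave medians of -0.23 for erastin (a reversal) and 0.0137 for DHA in sh-IGFBP6. The line difference was then called lower for 19 genes with erastin, and for 0 higher and 0 lower with DHA. DHA against erastin gave 15 lower with a median of -0.25 in sh-LUC, and 4 higher, 0 lower and a median of 0.23 in sh-IGFBP6. Over all tested genes the calls of DHA against erastin were 5478 in sh-LUC, 4025 higher, and 1541 in sh-IGFBP6, 973 higher. Of 405 gene results 94 calls were lost and 3 reversed, all with erastin in sh-IGFBP6: WDR43 (-0.066), DDX21 (-0.20) and RRP12 (-0.094). All these values keep erastin replicate 3 of sh-IGFBP6, the library with the lowest TMM factor (0.4315), and were not computed without it. The cause was not tested. DESeq2 and the unfiltered fit each called 5 lower with erastin in sh-IGFBP6 and 1 higher for the DHA line difference, and DESeq2 called 0 lower with DHA in sh-IGFBP6. Over all tested genes DESeq2 called 3086 with erastin in sh-IGFBP6, 1466 higher, and 2068 DHA line differences, 1018 higher. With DHA in sh-IGFBP6 it called 3792, 1796 higher. The unfiltered fit called 3552 of 40442 genes with erastin in sh-IGFBP6, 1788 higher, and 2486 DHA line differences, 804 higher. Leaving out 1 library gave 34 to 39 higher with erastin and 4 to 11 with DHA in sh-LUC. In sh-IGFBP6 it gave 6 to 12 higher and 4 to 8 lower with erastin, and 10 to 13 higher and 0 to 1 lower with DHA. Between untreated lines it gave 41 to 43 higher and 1 to 2 lower. The line difference gave 30 to 33 lower with erastin, and 2 to 8 higher and 3 to 7 lower with DHA. DHA against erastin gave 30 to 35 lower in sh-LUC, and 6 to 11 higher and 1 to 2 lower in sh-IGFBP6. Deviations of same-numbered samples had low correlations (45 pairs, r from -0.102 to 0.186, median 0.0115, 3 over 0.1). Of 18 libraries, 12 correlated best with their own number among the 3 replicate numbers. Whether samples of the same number were handled together was not tested. With the replicate block the genes called lower with erastin in sh-IGFBP6 went from 8 to 6, and 2 of 405 gene results lost their call.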
